A study of Mus musculus with 9 samples.

Results

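The 5 NF-κB subunit genes *Nfkb1*, *Nfkb2*, *Rel*, *Rela* and *Relb* were followed in leukemic clones of the mouse. With them went 5 genes listed here as inhibitors, *Nfkbia*, *Nfkbib*, *Nfkbie*, *Nfkbiz* and *Tnfaip3*. All were chosen by gene name, and all 10 were found among the 55401 genes listed for each library. The word inhibitors is the name of a list, and what each protein did in these cells was not measured. RNA-Seq covered 9 libraries in 3 groups of 3. All cells descended from lineage-negative bone marrow of C57BL/6-Ly5.1 mice that carried a gammaretroviral vector for *Meis1*, *Hoxa9* and puromycin resistance (H9M cells) and were marked with vectors for color codes and DNA barcodes. A pool of such clones was given to lethally irradiated C57Bl6/J mice together with helper bone marrow, so that spleens also held cells of the host and of the helper graft. Splenocytes were thawed and sorted by color code within the CD45.1+, EGFRt-bright, cKit+CD11bdim/neg gate. For the pre-malignant libraries, clone 33BC-D, clone 38BC-D and clone 43BC-D were sorted from mouse #15, which was sacrificed before leukemia was manifest. De novo expanded libraries were made from these clones at the leukemic endpoint, with clone 38BC-D sorted from mouse #13, 43BC-D from #14 and 33BC-D from #17. The stably expanded group was clone 34BC-D alone, taken from mice #13, #14 and #17. Pre-malignant state, time and mouse #15 therefore cannot be told apart, and the stably expanded group is 1 clone in 3 mice. Clone 34BC-D was in neither of the other groups, so that clone and state cannot be told apart wherever stably expanded libraries are compared. Columns of the tables could be tied to a group but not to a clone or mouse, so libraries are numbered 1 to 3 within a group as names only, and the p-values measure the spread between these libraries.

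NF-κB is a dimer of Rel family proteins that waits in the cytoplasm, bound by inhibitors of the IκB family. Signals from TNF, IL-1 and Toll-like receptors activate the IκB kinase complex, which marks IκB for destruction and frees dimers such as RELA with NFKB1 to enter the nucleus. There they induce *Nfkbia* and *Tnfaip3*, which encode IκBα and the ubiquitin-editing enzyme A20 and close a negative feedback loop, as well as *Nfkb2*, *Rel* and *Relb*. In myeloid cells the pathway is known for driving inflammatory cytokines and survival genes.

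Reads counted on genes numbered 10379739 to 15551196 per library. Levels are given as CPM (reads per 1000000 reads on genes), computed here over all 9 libraries from reads recovered from the deposited values. A count of 0 in a library would allow up to 3 reads, and this limit covers counting error only. The genes behind the sort were present in every library, with *Ptprc*, which encodes CD45, at 310.3 to 384.7 CPM. *Kit* was at 245.4 to 287.4 CPM in pre-malignant, 141.9 to 273.6 in de novo expanded and 200.3 to 230.7 in stably expanded libraries, and *Itgam*, which encodes CD11b, at 40.7 to 49.9, 27.8 to 58.2 and 58.0 to 85.7, so that both separated the stably expanded from the pre-malignant libraries (*Itgam* with an adjusted p-value of 0.0485 in limma, *Kit* with 0.0795). T and NK cell markers were near the limit of detection, with a summed level of 8 genes of 2.43 to 2.94 CPM in pre-malignant, 0.707 to 2.17 in de novo expanded and 0.783 to 1.99 in stably expanded libraries. The sum of 8 B cell markers was highest in pre-malignant libraries, at 225.9 to 273.1 CPM, against 75.8 to 225.1 in de novo expanded and 86.0 to 107.4 in stably expanded libraries. Most of it came from *Ighm* (61.9 to 240.4 CPM). In stably expanded libraries 7 of the 8 were lower. Of these, 5 were called (adjusted p-value under 0.05 in limma and at least 2-fold, 2.75% of all genes). *Cd79b* went the other way, from 4.66 to 10.1 CPM in pre-malignant to 9.73 to 17.8 CPM in stably expanded libraries. None of these 8 genes was at 0 in any library, and *Ms4a1* stayed at 2.84 CPM or lower. Neutrophil genes summed to 177.7 to 218.1 CPM in pre-malignant, 147.6 to 556.5 in de novo expanded and 522.4 to 4244 in stably expanded libraries, although *Ly6g* and *Retnlg* were at 0 in 3 libraries each. Erythroid markers summed to 18.6 to 35.0 CPM in pre-malignant, 2.29 to 14.8 in de novo expanded and 2.31 to 24.1 in stably expanded libraries. The sum of monocyte and macrophage genes overlapped between the groups. *Csf1r* was at 97.6 to 160.0 CPM in pre-malignant, 12.5 to 83.8 in de novo expanded and 29.1 to 56.9 in stably expanded libraries. *Pecam1*, from a list for stroma and endothelium, was at 231.0 to 247.4, 99.9 to 243.5 and 89.3 to 146.3 CPM, respectively. Both were called in the stably expanded comparison. *Csf1r* was the only gene called of 6 tested in its list, of which 3 were lower and 3 higher. *Pecam1* was the only gene tested of its list, and the others stayed at 1.06 CPM or lower in every library. The part of other cells in the values below was not tested, and in such bulk libraries fewer cells of a type and less RNA per cell cannot be told apart.

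Since *Nfkbia*, *Tnfaip3* and *Nfkb2* were the members with the smallest unadjusted p-values in the de novo expanded comparison, their promoter windows are shown first, followed by *Nfkbie*, whose level hardly differed between the pre-malignant and the stably expanded libraries, and *Rela*, the most even member. The windows run from 250 bases before to 50 bases after a start site, were taken from RefSeq on GRCm38.p6, and are written 5′ to 3′ on the strand of the gene. RefSeq windows were matched for 7 of the 10 members (10 windows, 3 of them for *Nfkb2* and 2 for *Tnfaip3*), and not for *Nfkb1*, *Relb* and *Nfkbiz*. Capitals mark every match to the 10-base NF-κB consensus, searched on both strands, and matches that overlap run together. The *Nfkbia* window (chr12:55492598-55492897, minus strand) held 1 match 29 bases before the start.
Nfkbia: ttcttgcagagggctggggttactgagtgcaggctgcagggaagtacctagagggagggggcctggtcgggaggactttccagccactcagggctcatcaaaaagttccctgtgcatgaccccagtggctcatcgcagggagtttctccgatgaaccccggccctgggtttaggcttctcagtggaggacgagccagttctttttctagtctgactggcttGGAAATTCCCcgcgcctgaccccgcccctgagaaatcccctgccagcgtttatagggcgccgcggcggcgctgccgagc
The window at the upstream start of *Tnfaip3* (chr10:19015361-19015660, minus strand) held matches 125 and 12 bases before the start.
Tnfaip3: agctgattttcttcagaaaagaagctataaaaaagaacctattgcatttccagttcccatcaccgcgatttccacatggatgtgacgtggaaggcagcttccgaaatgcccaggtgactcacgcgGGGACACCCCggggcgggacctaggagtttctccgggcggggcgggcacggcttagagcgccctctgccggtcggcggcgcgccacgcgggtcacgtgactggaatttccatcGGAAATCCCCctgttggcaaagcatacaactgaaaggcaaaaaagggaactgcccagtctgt
The first of the *Nfkb2* windows (chr19:46304487-46304786, plus strand) held a run of overlapping matches beginning 39 bases before the start and another match 11 bases before it.
Nfkb2: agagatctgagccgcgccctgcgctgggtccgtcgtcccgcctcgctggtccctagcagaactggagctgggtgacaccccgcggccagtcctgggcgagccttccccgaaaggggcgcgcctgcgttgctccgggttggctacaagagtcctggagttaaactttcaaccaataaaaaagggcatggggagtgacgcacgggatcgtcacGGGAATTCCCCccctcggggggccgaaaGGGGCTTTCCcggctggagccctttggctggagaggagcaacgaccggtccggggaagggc
The *Nfkbie* window (chr17:45555450-45555749, plus strand) held 1 match 106 bases before the start.
Nfkbie: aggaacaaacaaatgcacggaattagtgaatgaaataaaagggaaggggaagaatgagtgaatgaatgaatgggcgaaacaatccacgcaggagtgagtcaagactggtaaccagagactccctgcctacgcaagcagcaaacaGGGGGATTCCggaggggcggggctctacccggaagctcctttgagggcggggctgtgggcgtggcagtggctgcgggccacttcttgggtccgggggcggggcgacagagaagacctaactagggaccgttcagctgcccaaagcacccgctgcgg
The *Rela* window (chr19:5637291-5637590, plus strand) held no match.
Rela: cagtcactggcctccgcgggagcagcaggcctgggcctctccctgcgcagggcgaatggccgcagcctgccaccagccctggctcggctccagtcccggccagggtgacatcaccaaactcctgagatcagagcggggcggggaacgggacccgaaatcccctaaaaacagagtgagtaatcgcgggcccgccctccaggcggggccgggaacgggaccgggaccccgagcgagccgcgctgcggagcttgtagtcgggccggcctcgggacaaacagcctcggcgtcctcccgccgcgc
A match was present in 4.51% of all 32851 windows of this length. Among the members, 7 of 10 windows held one. These were all 3 windows of *Nfkb2*, 2 of which overlap and share a match, the upstream window of *Tnfaip3*, and those of *Rel*, *Nfkbia* and *Nfkbie*. The windows of *Rela* and *Nfkbib* and the second *Tnfaip3* window held none of these letters. The matches describe sequence only.

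Among the subunits, *Nfkb1* encodes p105, the precursor of p50, and lies on chromosome 3 from 135584655 to 135691547 (GRCm38.p6). Its level was 181.1, 160.2 and 174.6 CPM in pre-malignant libraries 1, 2 and 3, 145.4, 161.5 and 140.5 in the de novo expanded and 154.0, 157.9 and 147.2 in the stably expanded ones. Leukemic values lay just under the pre-malignant ones, and only de novo expanded library 2 reached into their range. *Nfkb2*, which encodes p100, the precursor of p52 in the alternative pathway, lies on chromosome 19 from 46304320 to 46312385. It stood at 52.4, 48.7 and 52.5 CPM in pre-malignant, 36.2, 34.1 and 35.1 in de novo expanded and 34.7, 29.0 and 45.3 in stably expanded libraries. All 6 leukemic libraries were below all pre-malignant ones, with stably expanded library 3 the closest.

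*Rel* on chromosome 11 (23736847 to 23770970) encodes c-Rel, a subunit abundant in hematopoietic cells. It was measured at 71.5, 61.7 and 73.0 CPM in pre-malignant, 57.3, 60.2 and 50.1 in de novo expanded and 54.9, 62.1 and 54.4 in stably expanded libraries. Only stably expanded library 2 reached the lowest pre-malignant value, and on the normalized counts of that comparison the groups did not overlap. The transactivating subunit *Rela* on chromosome 19 (5637483 to 5648130) was even across all libraries, at 65.2, 67.5 and 67.5 CPM in pre-malignant, 66.4, 66.8 and 67.4 in de novo expanded and 63.9, 62.8 and 64.8 in stably expanded libraries. The stably expanded values were slightly lower without overlap on this scale, but they overlapped both other groups when the libraries were scaled with TMM factors. *Relb*, the partner of p52 on chromosome 7 (19606217 to 19629438), was scarce, at 4.1, 4.0 and 4.9 CPM in pre-malignant, 2.3, 3.2 and 1.0 in de novo expanded and 1.6, 4.2 and 3.0 in stably expanded libraries. These values rested on only 15 to 72 reads per library. All 3 de novo expanded libraries were below the pre-malignant ones, whereas stably expanded library 2 was among them.

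Among the inhibitors, *Nfkbia*, which encodes IκBα, lies on chromosome 12 from 55489410 to 55492647. It was at 77.1, 80.4 and 67.4 CPM in pre-malignant, 36.0, 51.5 and 46.0 in de novo expanded and 40.8, 51.5 and 45.7 in stably expanded libraries. Every leukemic library was below every pre-malignant one by a wide margin, and the leukemic groups covered nearly the same range. *Tnfaip3* on chromosome 10 (19000910 to 19015657) encodes A20. Its level was 38.5, 55.1 and 46.9 CPM in pre-malignant, 23.9, 22.1 and 31.2 in de novo expanded and 30.7, 31.4 and 40.8 in stably expanded libraries. De novo expanded libraries were all below the pre-malignant ones, while stably expanded library 3 lay within their range. *Nfkbiz* on chromosome 16 (55811375 to 55838899) encodes the nuclear protein IκBζ, itself an inducible target. It was at 44.7, 32.5 and 30.1 CPM in pre-malignant, 10.4, 31.6 and 5.4 in de novo expanded and 5.5, 9.4 and 10.5 in stably expanded libraries. De novo expanded library 2 kept a pre-malignant level, and the other leukemic libraries were all at 10.5 CPM or lower.

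The other IκB proteins were steadier. *Nfkbib* (IκBβ, chromosome 7 from 28758251 to 28767512) was at 36.0, 35.5 and 38.1 CPM in pre-malignant, 35.0, 37.8 and 31.6 in de novo expanded and 34.2, 34.1 and 29.3 in stably expanded libraries. *Nfkbie* (IκBε, chromosome 17 from 45555703 to 45563169) was at 20.0, 25.9 and 22.1 CPM in pre-malignant, 14.3, 17.0 and 23.6 in de novo expanded and 23.6, 19.9 and 24.6 in stably expanded libraries. Neither gene separated the pre-malignant from both leukemic groups. Summed over the 5 inhibitors, the level was 204.6 to 229.6 CPM in pre-malignant, 119.6 to 160.1 in de novo expanded and 134.7 to 150.8 in stably expanded libraries, while the sum of the 5 subunits was 342.1 to 374.3, 294.1 to 325.8 and 309.2 to 316.1 CPM, respectively. Both sums were thus highest in pre-malignant libraries, with no overlap.

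**Figure D1:**
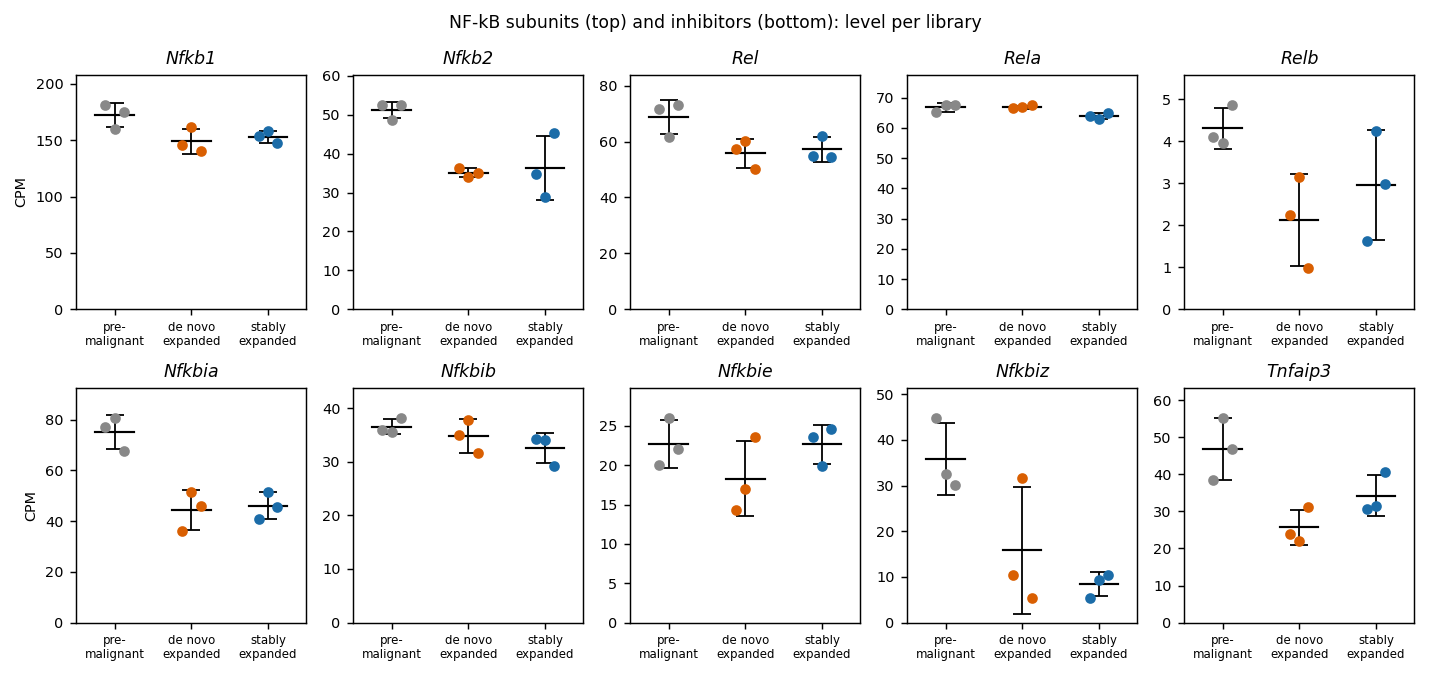
Level of each gene in CPM (vertical axis, starting at 0) in the 3 libraries of each group. Points are libraries, the wide line is the mean and the bars are the SD (n = 3). *Nfkbia* lay at 67.4 CPM or higher in pre-malignant and at 51.5 CPM or lower in leukemic libraries, whereas *Rela* stayed between 62.8 and 67.5 CPM throughout.

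Divided by exonic length, the order of the levels over all 9 libraries was *Nfkbia* with a mean of 34.2 CPM per kilobase (SD 9.94, n = 9), *Rela* with 21.4 (0.559), *Nfkbib* with 15.96 (1.30), *Nfkb1* with 13.1 (1.11), *Nfkb2* with 8.92 (1.94), *Rel* with 8.12 (1.02), *Nfkbie* with 6.97 (1.24), *Tnfaip3* with 4.93 (1.49), *Nfkbiz* with 3.99 (2.92) and *Relb* with 0.806 (0.335). *Nfkbia* was above *Rela* and *Rela* above *Nfkbib* in all 9 libraries without overlap, as was *Nfkb1* above *Nfkb2*. Over all 9 libraries the ranges of the neighbours *Nfkb2* and *Rel* overlapped, with *Nfkb2* higher in 7 of 9. In pre-malignant libraries alone, *Nfkb2* (10.63 to 11.45 CPM per kilobase) lay above *Rel* (8.26 to 9.78) without overlap. The ranges of *Rel* and *Nfkbie* also overlapped, with *Rel* higher in 5 of 9 libraries. *Tnfaip3* was above *Nfkbiz* in 7 of 9 libraries, and the order of this pair differed between the group means, with *Nfkbiz* ahead in the pre-malignant group alone. *Nfkbia* thus kept the highest level per length of the members in each group, at 46.6, 27.6 and 28.6 CPM per kilobase in pre-malignant, de novo expanded and stably expanded libraries, even where it was lower.

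To ask what distinguished de novo expanded from pre-malignant clones of the same 3 color codes, log2 fold changes (de novo expanded over pre-malignant) were tested with limma on log2(normalized count + 1), and a call required both an adjusted p-value under 0.05 and a 2-fold difference. Besides *Relb*, the members with the largest differences on the log2 scale were *Nfkbiz*, *Tnfaip3* and *Nfkbia*. They stood at 34.9%, 55.6% and 59.6% of the pre-malignant mean, respectively (differences of means of log2 values turned back to ratios), yet none was called. Of the 10 members 0 were called, as were 0 of all 14195 genes tested (0%). Of the members, 5 had an unadjusted p-value under 0.05 and were lower, a mark passed downward by 5.26% of all genes and in either direction by 11.3%, and 9 of 10 had a negative fold change (49% of all genes). The median over the members was -0.42, against 0.01 over all genes tested. In 5 members (*Nfkb2*, *Rel*, *Relb*, *Nfkbia* and *Tnfaip3*) the groups did not overlap and de novo expanded libraries were lower, where 8.5% of all genes were lower without overlap and 19.1% did not overlap in either direction. Of these, *Rel* overlapped when the libraries were scaled with TMM factors.

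Among the subunits, the log2 fold change of *Nfkb2* was -0.53 with a standard error (SE) of 0.11 (adjusted p = 0.330 in limma). That of *Relb* was -1.12 (SE 0.44, adjusted p = 0.424), the largest and least precise of the subunits, and -0.67 without library 3. *Rel* and *Nfkb1* had smaller values, -0.28 (95% interval -0.57 to 0.00) and -0.19 (-0.42 to 0.04). For *Rela* the interval was -0.20 to 0.24 around 0.02, so that a 2-fold difference lay outside it. Of the inhibitors, *Tnfaip3* had -0.85 (SE 0.19, adjusted p = 0.356) and *Nfkbia* -0.75 (SE 0.16, adjusted p = 0.330). *Nfkbiz* had the lowest value, -1.52, but with an SE of 0.57 (adjusted p = 0.417), and it was -2.20 without library 2, the one at a pre-malignant level, and -0.95 without library 3. Values for *Nfkbie* and *Nfkbib* were -0.32 (-0.83 to 0.20) and -0.06 (-0.34 to 0.23). Library 3 of the de novo expanded group stood apart, with *Mpo* at 15800 CPM against 1637 and 2658 in the other libraries of its group. Without it limma gave adjusted p-values of 0.0108 for *Tnfaip3*, which was then called with a log2 fold change of -1.003, 0.0243 for *Nfkbia* and 0.0424 for *Nfkb2*, while 4.35% of all genes passed this limit and 1.5% were called. With all libraries, DESeq2 on the recovered reads gave 0.0171, 0.0258 and 0.0279 for *Nfkbia*, *Tnfaip3* and *Nfkb2*, none of them 2-fold, where 0.93% of all genes passed and 0.451% were also 2-fold. With edgeR 0 members passed, as did 0 of all 14195 genes.

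**Figure D2:**
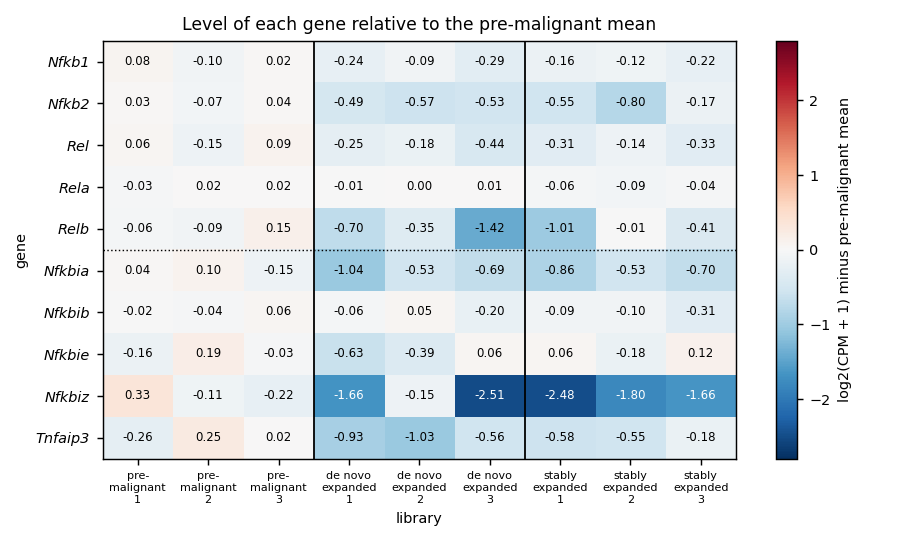
Difference in log2(CPM + 1) of each gene (vertical axis) in each library (horizontal axis, grouped) from the mean of the pre-malignant libraries. *Nfkbia* lay between -1.04 and -0.53 in the 6 leukemic libraries, and *Nfkbiz* at -0.15 in de novo expanded library 2 and at -1.66 or lower in the others.

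The comparison of the stably expanded clone with the pre-malignant clones gave the clearest differences. *Nfkbiz* was at 23.4% and *Nfkbia* at 61.4% of the pre-malignant mean, and *Nfkbie* and *Rela* were nearly level. Called was 1 of the 10 members, *Nfkbiz*, against 384 of 13968 genes (2.75%, and 1.55% lower). Its log2 fold change was -2.10 (SE 0.25, adjusted p = 0.00346 in limma). It was called in each of the 6 fits that left out 1 library, with values between -2.29 and -1.82. *Nfkbia* passed the adjusted p-value (0.00896, log2 fold change -0.70, SE 0.12) but not the fold, and at this limit 2 members passed, both lower, against 7.95% of all genes (3.61% lower). *Nfkbia* also remained under an adjusted p-value of 0.05 in all 6 fits that left out 1 library. In a single fit of all 9 libraries, which adds the de novo expanded libraries to the estimate of the spread, limma gave 0.104 for *Nfkbiz* and 0.0791 for *Nfkbia*, where 0.0573% of all genes passed and 0.043% were called.

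The remaining members did not pass. *Nfkb2* had a log2 fold change of -0.51 (SE 0.17) and limma gave an adjusted p-value of 0.0795, which was 0.0209 without stably expanded library 3 and 0.0481 under DESeq2 (passed by 12.2% of all genes, and by 3.78% with the fold). Other values were -0.44 for *Tnfaip3* (95% interval -0.80 to -0.08), -0.62 for *Relb* (-1.46 to 0.21, and -0.27 without stably expanded library 1), -0.26 for *Rel* (-0.51 to -0.01), -0.16 for *Nfkb1* (-0.36 to 0.04) and -0.17 for *Nfkbib* (-0.44 to 0.11). *Rela* was at -0.06 (-0.28 to 0.16) and *Nfkbie* at 0.00 (-0.35 to 0.36). In all, 9 of 10 members had a negative value (49.5% of all genes), 5 were lower at an unadjusted p-value under 0.05 (12.3%, and 25.4% in either direction), and the median over the members was -0.35, against 0.00 over all genes tested. The groups did not overlap in 7 members, all lower in stably expanded libraries, as in 14.6% of all genes (30.7% in either direction). These were *Nfkb1*, *Nfkb2*, *Rel*, *Rela*, *Nfkbia*, *Nfkbib* and *Nfkbiz*. With TMM factors *Nfkb1*, *Rel*, *Rela* and *Nfkbib* overlapped, and *Nfkb2*, *Nfkbia* and *Nfkbiz* did not. Since the pre-malignant libraries served in both comparisons, their values are set side by side only.

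Between the leukemic groups no member passed. Of the 10 members 0 were called, against 1 of 13758 genes (0.00727%), and 0 had an unadjusted p-value under 0.05 (4.83% of all genes, and 2.11% lower) in limma. DESeq2, with 0.254% of all genes passing and 0.233% also 2-fold, and edgeR, with 0.00727% called, also called 0 members. The log2 fold change of stably over de novo expanded was 0.06 for *Nfkbia* (95% interval -0.33 to 0.45), 0.05 for *Nfkb1* (-0.18 to 0.27) and -0.06 for *Rela* (-0.29 to 0.17), intervals that leave out a 2-fold difference. *Tnfaip3* had 0.42 (-0.03 to 0.88) and *Nfkbie* 0.34 (-0.19 to 0.86). The intervals were wide for *Nfkbiz* (-1.98 to 0.86, around -0.56) and *Relb* (-0.74 to 1.76, around 0.51). They did not leave out a 2-fold difference, downward for *Nfkbiz* and upward for *Relb*. The median over the members was 0.04, against -0.00 over all genes. The groups did not overlap in 1 member, *Rela*, which did overlap with TMM factors, where 9.61% of all genes did not (4.95% lower). Without de novo expanded library 3, when 6.69% of all genes passed the adjusted p-value and 3.69% were called, 0 members passed. In this limma fit 3 members had an unadjusted p-value under 0.05. The share of all genes at that limit was not computed for it, and the 4.83% above belongs to the fit of all 6 libraries.

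**Figure D3:**
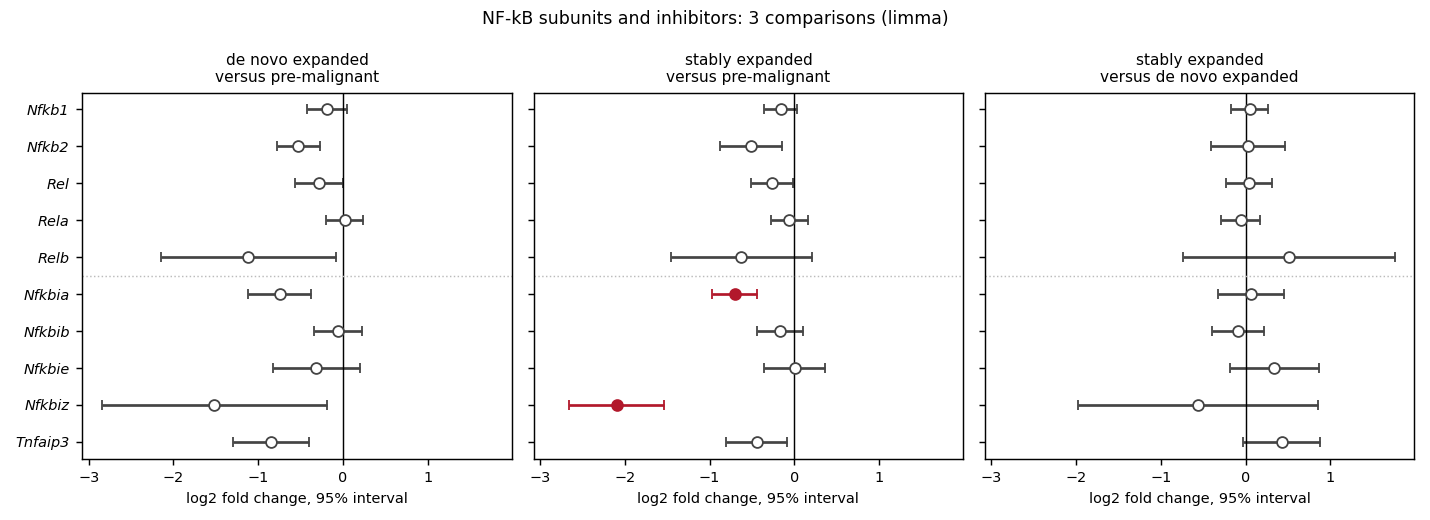
Log2 fold changes (horizontal axis) with 95% intervals from limma in 3 comparisons, each fitted on 6 libraries. Filled red points had an adjusted p-value under 0.05, which were *Nfkbia* (-0.70) and *Nfkbiz* (-2.10) in the stably expanded over pre-malignant comparison.

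Reads of some members may be shared with overlapping genes, as the strand setting of the counting was not given in the sources used here. *Nfkb2* overlaps on the opposite strand a gene without a symbol, which was at 13.8 to 19.1 CPM in pre-malignant, 7.59 to 8.87 in de novo expanded and 10.7 to 11.3 in stably expanded libraries and thus differed in the same direction. *Nfkbib* overlaps *Sirt2* on the opposite strand (22.9 to 37.5 CPM) and *Nfkb1* the small gene *Gm43430* on its own strand (2.19 to 6.16 CPM). The part of these genes in the members' values was not tested.

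Other genes of the pathway were followed in lists, beginning upstream. Their counts stand beside 7.95% of all genes (3.61% lower) that passed the adjusted p-value of 0.05 in the stably expanded comparison, and 0% in the de novo expanded one. The share of all genes passing in the stably expanded comparison was 3.49%, 2.68% and 3.95% without pre-malignant library 1, 2 and 3. It was 3.55%, 7.13% and 7.77% without stably expanded library 1, 2 and 3, and 0.0573% in the fit of all 9 libraries. Without de novo expanded library 3, 4.35% passed in the de novo expanded comparison. Of 30 genes for the IκB kinases and their adaptors 29 were tested, 16 were lower and 13 higher in de novo expanded libraries (median -0.02), and 15 lower and 14 higher in stably expanded libraries (median -0.01). *Card9*, an adaptor of fungal recognition, and *Tab2*, which links TAK1 to ubiquitin chains, were the most abundant of the list and had log2 fold changes of 0.06 and -0.11 in stably expanded libraries. *Irak3*, a brake on Toll-like receptor signaling, was the only gene of this list to pass in the comparison of stably expanded with pre-malignant libraries. It rose by 0.58 (SE 0.13, adjusted p = 0.0234 from limma), from 54.2 to 65.8 CPM in pre-malignant to 79.8 to 98.6 CPM in stably expanded libraries, and without pre-malignant library 2 or 3 or stably expanded library 1 the list had 0 genes that passed. Among 20 receptors 16 were tested, and 2 passed in stably expanded libraries. *Il18rap*, a chain of the IL-18 receptor, rose from 14.1 to 27.3 CPM to 41.1 to 61.3 CPM (1.28, SE 0.24, adjusted p = 0.0121 from limma). *Cd14*, the co-receptor for lipopolysaccharide, fell from 22.2 to 24.99 CPM to 10.2 to 15.4 CPM (-0.89, SE 0.18, adjusted p = 0.0165 from limma). Without pre-malignant library 2 or 3, 1 receptor gene passed.

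Of 11 ligands 4 passed the filter on low counts in both comparisons, and 0 passed in limma and edgeR. Of all genes 7.95% and 7.69% passed with these in the stably expanded comparison, and 0% in the de novo expanded one. With DESeq2, 1 passed in stably expanded libraries (12.2% of all genes). There 2 had an unadjusted p-value under 0.05 in limma (25.4% of all genes). *Tnf* stood at 14.0 to 17.5 CPM in pre-malignant, 8.23 to 15.4 in de novo expanded and 6.79 to 10.7 in stably expanded libraries (adjusted p = 0.0574 in limma for the latter). *Tnfsf12*, which encodes TWEAK, was at 3.04 CPM or lower in every library. Its receptor gene *Tnfrsf12a* and the kinase gene *Map3k14* (NIK) of the alternative arm were the 2 of 4 tested genes of that arm that passed in stably expanded libraries, with log2 fold changes of -1.91 (SE 0.47, adjusted p = 0.0348) and -0.78 (SE 0.16, adjusted p = 0.0195) in limma. *Map3k14* went from 29.2 to 34.2 CPM in pre-malignant to 16.1 to 21.7 CPM in stably expanded libraries. The arm had 0 genes that passed without pre-malignant library 1 or 2 or stably expanded library 1. Of 12 further brakes on the pathway 11 were tested and 3 passed. The nuclear IκB gene *Nfkbid* fell by 0.81 (SE 0.17, adjusted p = 0.0179), from 27.7 to 36.3 CPM to 14.9 to 20.4 CPM. The deubiquitinase gene *Otud7b* (Cezanne) rose by 1.04 (SE 0.17, adjusted p = 0.00834), and *Tax1bp1*, an adaptor of A20, rose by 0.35 (SE 0.08, adjusted p = 0.0318), all in limma. Only 1 of the list passed without pre-malignant library 2 or 3. Fold changes of this list went both ways, with 4 lower and 7 higher and a median of 0.09. In de novo expanded libraries 0 genes of these 5 lists passed in limma, edgeR or DESeq2 (0%, 0% and 0.93% of all genes). At an unadjusted p-value under 0.05 limma had 3 receptor genes, 1 ligand gene, 1 gene of the alternative arm and 0 of the others. All of these were lower, where 5.26% of all genes were lower at this limit and 11.3% passed it in either direction. Without de novo expanded library 3, 1 gene of the kinases and adaptors and 1 receptor gene passed there. In the single fit of all 9 libraries 0 genes of these lists passed.

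Target genes of NF-κB moved in both directions. Of 32 listed, 18 were tested against pre-malignant libraries. In de novo expanded libraries the median was -0.55 and 12 were lower. Of these 18, 0 passed in limma and edgeR (0% of all genes in both) and 1 in DESeq2 (0.93% of all genes). An unadjusted p-value under 0.05 in limma was reached by 6 (11.3% of all genes). In stably expanded libraries the median was -0.43, 10 were lower and 8 passed in limma (7.95% of all genes). The chemokine genes *Cxcl2*, *Ccl3* and *Ccl4* fell, with log2 fold changes of -3.26 (SE 0.57), -1.46 (SE 0.39) and -1.38 (SE 0.37) in stably expanded libraries. *Ccl3* was at 50.3 to 61.5 CPM in pre-malignant and 8.74 to 35.4 in stably expanded libraries, and *Cxcl2* at 2.20 to 4.93 and 0.193 to 0.685. Also falling were *Csf1*, the macrophage growth factor (-1.64), the RNase gene *Zc3h12a* (-0.77) and the transcription factor gene *Irf1* (-0.68). *Irf1* separated the pre-malignant from all leukemic libraries, as *Nfkbia* did, with 80.8 to 96.3 CPM in pre-malignant, 50.4 to 56.5 in de novo expanded and 51.9 to 55.4 in stably expanded libraries. *Lcn2*, which encodes a siderophore-binding protein of neutrophil granules, rose by 2.54 (SE 0.33) and *Marcksl1* by 1.38 (SE 0.31). Adjusted p-values from limma for the 8 genes that passed lay between 0.00357 for *Lcn2* and 0.0466 for *Ccl3*. *Lcn2* moved together with the neutrophil markers given above. Leaving out 1 library gave between 3 genes (without pre-malignant library 2, where 2.68% of all genes passed) and 7 genes (without stably expanded library 3, 7.77%). The fit of all 9 libraries gave 0 (0.0573% of all genes). In the de novo expanded comparison, 2 target genes passed without de novo expanded library 3 (4.35% of all genes).

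Early response genes, which are induced within minutes by many stimuli and not by NF-κB alone, were followed as a further list. Their summed level over 20 genes was 3213 to 3559 CPM in pre-malignant, 1694 to 2148 in de novo expanded and 1102 to 2476 in stably expanded libraries. Against pre-malignant libraries, the de novo expanded group gave a negative fold change for 19 of 19 tested genes, with a median of -0.82 (16 of 19 in edgeR and DESeq2). Of these 0 passed in limma and edgeR (0% of all genes in both) and 9 in DESeq2 (0.93% of all genes). An unadjusted p-value under 0.05 in limma was reached by 13 (11.3% of all genes). In stably expanded libraries 18 of 18 had a negative value (16 in edgeR and DESeq2), with a median of -0.99, and 11 passed in limma (7.95% of all genes), namely *Fos*, *Fosb*, *Junb*, *Ier2*, *Atf3*, *Dusp1*, *Zfp36*, *Klf2*, *Klf4*, *Klf6* and *Ppp1r15a*. The signs of the heat shock genes *Hspa1a* and *Hspa1b* depended on the scale, as *Hspa1b* was at 10.8 to 18.5 CPM in pre-malignant, 1.61 to 29.7 in de novo expanded and 1.10 to 71.7 in stably expanded libraries, and *Egr1* in stably expanded library 2 (76.7 CPM) was above every pre-malignant library. The AP-1 gene *Fos* was at 482.1 to 645.3 CPM in pre-malignant and 86.4 to 312.7 in stably expanded libraries, and *Ppp1r15a*, a stress gene, had the smallest adjusted p-value of the list (0.00284 from limma) with -1.63 (SE 0.18). The count of 11 became 4, 3 and 4 without pre-malignant library 1, 2 and 3, where 3.49%, 2.68% and 3.95% of all genes passed. It was 0 in the fit of all 9 libraries (0.0573% of all genes). Without de novo expanded library 3, 11 genes of the list passed in the de novo expanded libraries (4.35% of all genes). Their part in the members' values was not tested.

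**Figure D4:**
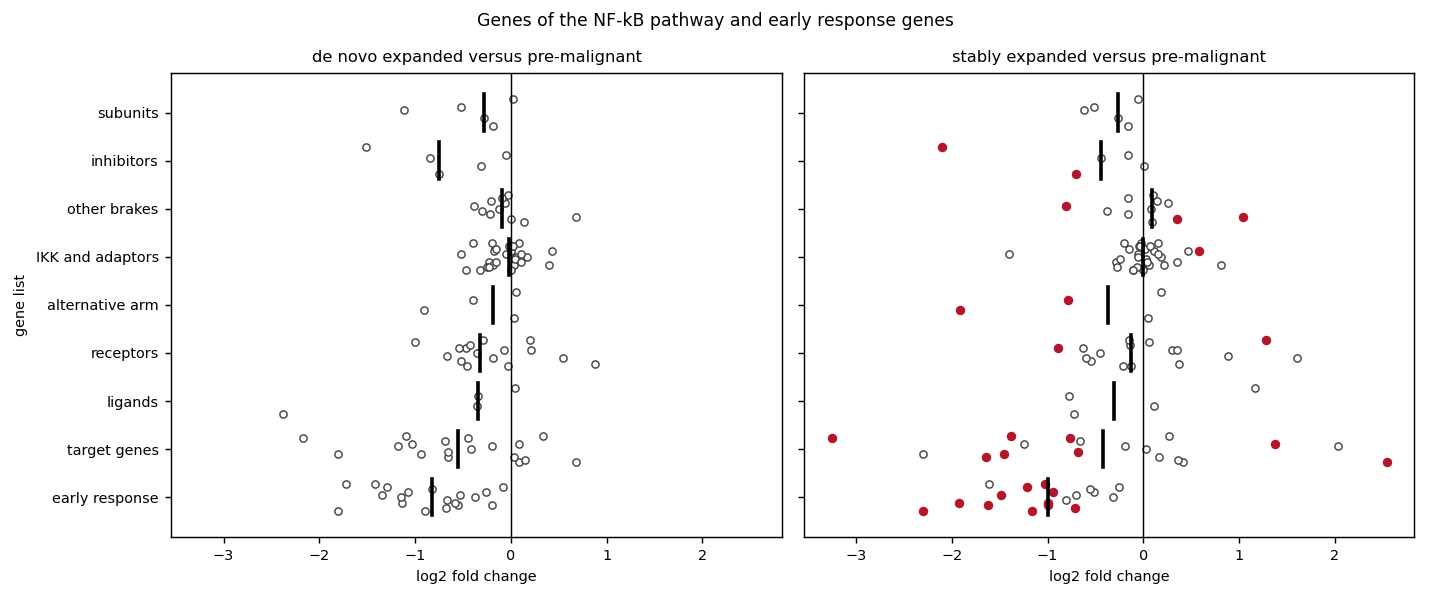
Log2 fold changes (horizontal axis) of every tested gene of 9 lists (vertical axis, with points spread for legibility) against pre-malignant libraries. Black bars are medians and filled red points had an adjusted p-value under 0.05 in limma. The median of the kinases and adaptors was -0.02 and -0.01, that of the inhibitors -0.75 and -0.44, and that of the early response genes -0.82 and -0.99 in de novo and stably expanded libraries.

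The genes most like *Nfkbia* in pattern over the 9 libraries, by Pearson's r of log2(CPM + 1) among 13081 genes with a mean of at least 1 CPM, were *Ugt1a2* (0.96), *Trio* (0.96), *Cyth1* (0.96), *Ilvbl* (0.95) and *Intu* (0.94). Of these, *Trio*, a guanine nucleotide exchange factor, ranged from 51.7 to 129.3 CPM and *Cyth1*, which encodes cytohesin 1, from 43.6 to 76.9 CPM. For *Nfkb1* they were *Inpp4a* (0.96), *Tubgcp3* (0.96), *Gm37305* (0.96), *Slc4a1* (0.95) and *Rel* (0.94), the last of them another member. These are descriptions over 9 libraries, and the points share 3 groups and the depth of each library.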

How the data were processed

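RNA-Seq was analysed in 9 libraries of sorted splenocytes, 3 per group, and the groups were taken from the sample labels. According to the paper and the submitters' processing notes, reads were trimmed with Trim Galore 0.6.4, aligned with STAR 2.6.1d and counted with featureCounts 1.6.4 on GRCm38.p6 with the GENCODE annotation, and normalized with DESeq2, for which independent filtering and the replacement and filtering of outliers were off. The authors deposited 3 tables, 1 per comparison, whose signal is the count per gene divided by the DESeq2 size factor over 6 libraries (normalized counts). They also hold the gene lengths deposited with them, and fold changes, test statistics and p-values of the authors' own DESeq2 comparison, which were not used. Whole reads were recovered, to within 0.05 reads, for at least 99.99% of values. Levels over 9 libraries were set across tables as CPM of these reads. Depth was 10379739 to 15551196 reads on genes.

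Groups were compared by limma (empirical Bayes with trend, two-sided), fitted to log2(normalized count + 1) of genes whose normalized counts averaged 10 or more across the 6 libraries of a table, and p-values were adjusted over all tested genes after Benjamini and Hochberg. Fold changes are on this scale and understate the change of low genes. All 10 members passed this filter in each comparison. With 3 libraries against 3, an exact permutation test cannot give a p-value below 0.1. Software was DESeq2 1.42.0, edgeR 4.0.16 and limma 3.58.1 in R 4.3.3, and matplotlib 3.10.9, numpy 2.4.6 and pandas 2.3.3 in Python 3.11.15. The test was first tested on simulated counts, with changes larger than those of most members and the same spread setting for all genes. Smaller changes and libraries that stand apart were not simulated. The members and gene lists were chosen with earlier results of these data known. Named besides the members are genes of the other lists with an adjusted p-value under 0.05 in any comparison and, for lists with fewer than 2 of these, the 2 with the highest mean CPM, together with the 5 genes most like *Nfkbia* and *Nfkb1*. *Mpo*, *Ighm*, *Ms4a1* and the genes of the gate were named as markers. *Cd79b*, *Csf1r*, *Pecam1*, *Ly6g*, *Retnlg*, *Hspa1a*, *Hspa1b*, *Egr1*, *Sod2* and genes overlapping a member were named after their values were seen. Alternatives were other pseudocounts, filters, normalizations and tests, a fit of all 9 libraries, no fold limit, and leaving out each library. A further modification shared by all groups and 1 marker gene are not reported here.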

Additional observations from a re-analysis of the deposited data

How the results depend on the processing

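The precision of the members was limited by 3 libraries per group, and for *Relb* by its low reads. With a filter of 50 on the mean normalized count, *Relb* was no longer tested, and the members' median was -0.32 in the de novo expanded and -0.26 in the stably expanded comparison with pre-malignant libraries. Without a fold limit 2 members passed in the stably expanded comparison (7.95% of all genes). In the fit of all 9 libraries, in which limma estimates the spread from all 3 groups, 0 members passed (0.0573% of all genes). Leaving out 1 library gave 0 to 1 members called and medians of -0.53 to -0.41 in the de novo expanded comparison. The 1 member was called without de novo expanded library 3, where 1.5% of all genes were called, against 0% in the other fits. In the stably expanded comparison, 1 member was called in each fit (1.48% to 3.23% of all genes), with medians of -0.41 to -0.25. Between the leukemic groups, 0 members were called in each fit (0% to 3.69% of all genes), with medians of 0.017 to 0.11. Signs turned only for values near 0. These were, in the de novo expanded comparison, *Rela* under quantile normalization (-0.0074) and *Nfkbib*, which lay between -0.11 and 0.0015 over the fits without 1 library (the latter without de novo expanded library 3), and, in the stably expanded comparison, *Nfkbie* under quantile normalization (-0.040) and edgeR (-0.0030) and, over the fits without 1 library, between -0.072 and 0.11. Between the leukemic groups, *Nfkb1* and *Nfkb2* turned under quantile normalization (-0.0017 and -0.0012), and without 1 library *Nfkb2* lay between -0.15 and 0.20, *Rel* between -0.027 and 0.093 and *Nfkbia* between -0.086 and 0.17. An exception in size was *Nfkbiz*, which lay between -1.14 and 0.12 between the leukemic groups, the latter without de novo expanded library 2. *Relb* kept its sign in the fits without 1 library but lay between -1.46 and -0.67 in the de novo expanded and between -0.92 and -0.27 in the stably expanded comparison, and between 0.059 and 0.87 between the leukemic groups. The cause was not tested. Scaling with TMM factors moved 0 of the 30 group levels by more than the spread of the libraries. Some groups that did not overlap on the normalized counts overlapped on this scale, as given above. No paired analysis was possible because the columns of the tables carry no clone, mouse or replicate number.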
